A study of Mus musculus with 6 samples.

Results

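The genes described here encode nucleoporins, which build the nuclear pore, and the importins, transportins and exportins that carry cargo through it. They were taken from the deposited gene count table as protein-coding genes whose symbols begin with Nup, Ipo, Xpo or Tnpo and a digit, or with Kpna or Kpnb. The rule found 43 of the 53800 genes in the table, 21 of them nucleoporins and 22 carriers. mRNA sequencing covered 6 libraries of NCTC 1469, a wild-type line from mouse liver whose samples are labelled hepatocytes. In the SMG group, 3 libraries came from cells kept for 6 days on a random positioning machine, which keeps reorienting the culture against gravity to simulate microgravity. In the NG group, 3 libraries came from cells kept for 6 days at normal gravity. All cultures shared DMEM with fetal bovine serum. The series title names melatonin, but the labels list no such treatment for these samples. The count columns bear the letter R or C and a replicate number. Taking R for SMG and C for NG is an inference, and the direction of each difference depends on it. The labels do not say that replicates came from separate cultures, so p-values measure the spread between these libraries, which may be technical.

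The nuclear pore is a ring of many copies of its subunits set in the nuclear envelope. A scaffold of Y complexes and an inner ring holds nucleoporins with phenylalanine-glycine repeats, which fill the channel and bind passing carriers. Importin alpha reads the classical nuclear localization signal and is itself carried by importin beta, whereas transportins and other importins bind cargo directly. Exportins leave the nucleus with their cargo bound to the GTPase Ran, and hydrolysis of its GTP in the cytoplasm releases the load. Pores are added in growing and dividing cells, and the envelope and its pores are taken apart and rebuilt at mitosis.

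Library totals were 30474792 to 34318208 counts in SMG and 31406875 to 32797684 in NG. NG replicate 1 stood apart: across 14509 tested genes its log2 CPM (counts scaled to a total of 1000000) correlated at r = 0.936 with both other NG libraries, and at 0.943 to 0.946 with the SMG libraries. NG replicates 2 and 3 correlated with each other at 0.985. Of 14 hepatocyte markers, 11 had 0 counts in every library, among them Alb and Hnf4a, which goes against the label hepatocytes. Of the other 3 only Ass1, a urea cycle gene active in many cell types, could be tested. It rose in SMG, with 225.8, 217.9 and 258.3 CPM in SMG, against 129.4, 113.0 and 102.2 CPM in NG (log2 fold change 1.03, adjusted p = 0.0247). All 12 macrophage markers had counts, though Mrc1 averaged only 0.272 CPM. Their summed level was 10730 to 12110 CPM in SMG, against 10750 CPM in NG replicate 1 and 6833 to 6854 CPM in NG replicates 2 and 3. Lyz2 weighed heavily in this sum, with 3940, 3543 and 4673 CPM in SMG and 3992, 943.9 and 993.5 CPM in NG. Other markers differed from it. Itgam and Ptprc were lowest of all libraries in NG replicate 1, at 153.4 and 179.6 CPM. Adgre1 was nearly level, with means of 817.5 CPM in SMG and 863.8 CPM in NG. The comparisons are therefore given with all 6 libraries and without NG replicate 1. In such bulk libraries, fewer cells of a type and less RNA per cell cannot be told apart.

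Of the 43 genes, 40 had enough counts to be tested. Nup210, a gene for a membrane protein of the pore, and Nup62cl, a Nup62 relative, had 0 counts. A count of 0 allows at most 0.0154 CPM over the 194666094 counts of all libraries. Kpna7, an importin alpha gene best known from oocytes and early embryos, had 10 counts in all. The tested genes averaged between 2.39 CPM (Nup210l) and 537.5 CPM (Kpnb1) over the 6 libraries.

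Per gene length, Kpna2 and Kpnb1 of the classical pathway were the most abundant members. On the RPKM scale (CPM per kilobase of the length in the table), Kpna2 led with a mean level of 108.5 in SMG and 126.3 in NG. Kpna2 encodes an importin alpha that is most abundant in dividing cells. Kpnb1, the importin beta gene, came next at 84.0 RPKM in SMG and 98.4 RPKM in NG, followed by Ipo7, which imports ribosomal proteins and histones, at 64.1 RPKM in SMG and 68.2 RPKM in NG. Tnpo1, Nup88 and Nup85 lay close together in SMG, at 39.8, 38.9 and 38.6 RPKM, within the spread of their libraries. Xpo1, the main protein exporter, stood at 36.2 RPKM in SMG and 39.7 RPKM in NG. Xpo7 and Nup210l had the lowest levels of the tested genes on this scale, with SMG means of 5.13 and 0.375 RPKM. Xpo7 has the longest listed length of the members, 15121 bases, and its SMG mean was 77.6 CPM before division by length. Scaffold subunits that share a complex differed: within the Y complex, SMG means ran from 9.31 RPKM for Nup43 to 38.6 RPKM for Nup85.

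**Figure D1:**
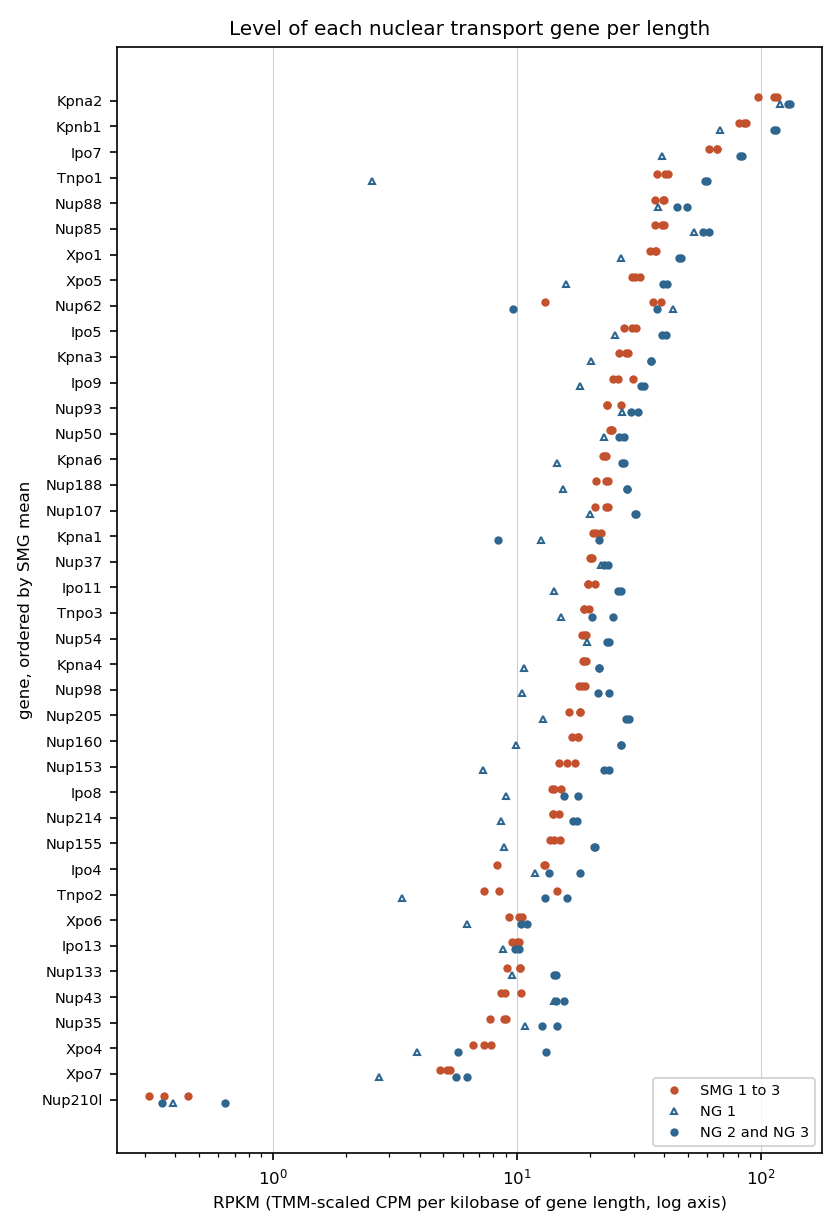
Level of the 40 tested genes per length (x axis, RPKM on a log scale), ordered by the SMG mean, with 1 point per library: SMG in orange above, NG in blue below and NG replicate 1 as an open triangle. Kpna2 and Kpnb1 lead, and for most genes the SMG points lie between NG replicate 1 and the other NG libraries.

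Within families the leading gene kept its place in every library. Kpna2 made up 51.4%, 55.7% and 56.2% of the summed RPKM of the 5 tested importin alpha genes in SMG replicates 1 to 3, against 67.3%, 58.5% and 54.9% in NG replicates 1 to 3. Xpo1 held 40.3% to 40.8% of the exportin sum in SMG and 39.5% to 48.0% in NG. Kpnb1 held 25.0% to 26.1% of the sum over importin beta and transportin genes in SMG and 25.8% to 31.5% in NG. In each of the 3 families NG replicate 1 gave the highest share, and the SMG range overlapped that of NG replicates 2 and 3.

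Promoter windows were available for 34 members from RefSeq (GRCm38.p6), matched by symbol, as 41 windows of which the 250 bases before the gene start were searched on both strands. Of the 25 members that fell without NG replicate 1, 20 have a window. Nup85, Nup43, Nup35, Kpna1, Kpna3, Kpna6, Nup210l, Xpo4 and Xpo7 have no entry. The member windows include those of the untested Kpna7, Nup62cl and Nup210, which the windows of tested genes leave out. The NF-Y box CCAAT occurred in 21 windows of 19 members (51.2%), against 33.8% of all 32851 windows and 35.8% of those of tested genes. The core of the cell cycle gene homology region, TTTGAA, occurred in 19.5% of member windows, against 16.0% of all windows and 11.1% of those of tested genes. An ETS core CCGGAAG was in 17.1%, against 6.91% and 13.9%, and the E-box CACGTG in 12.2%, against 6.02% and 8.18%. The E2F cores GCGGGAA and GCGCCAA were in 7.32% and 2.44%, against 6.69% and 3.39% of tested genes, and the NRF1 core GCATGC in 9.76%, against 8.23%. Several windows of 1 gene can overlap, and CCAAT and GCGCCAA can share bases. A match describes letters only.

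The sequences shown are those of the most abundant importin beta, importin alpha and exportin genes and of Nup205, the member with the lowest log2 fold change without NG replicate 1. They run 5′ to 3′ and end at the base before the RefSeq start, which for Nup205 and Kpna2 lies inside the gene as the count table places it, with matches to CCAAT and TTTGAA on either strand in capitals. Kpnb1 holds 3 matches to CCAAT, Xpo1 holds 2, Kpna2 holds 1 of each motif, and Nup205 holds none.
Kpnb1 (chr11:97187893-97188142, minus strand): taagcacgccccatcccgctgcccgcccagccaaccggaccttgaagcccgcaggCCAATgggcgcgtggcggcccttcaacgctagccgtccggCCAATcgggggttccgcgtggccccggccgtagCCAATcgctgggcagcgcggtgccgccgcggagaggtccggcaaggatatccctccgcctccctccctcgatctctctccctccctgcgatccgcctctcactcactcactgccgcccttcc
Kpna2 (chr11:106999526-106999775, minus strand): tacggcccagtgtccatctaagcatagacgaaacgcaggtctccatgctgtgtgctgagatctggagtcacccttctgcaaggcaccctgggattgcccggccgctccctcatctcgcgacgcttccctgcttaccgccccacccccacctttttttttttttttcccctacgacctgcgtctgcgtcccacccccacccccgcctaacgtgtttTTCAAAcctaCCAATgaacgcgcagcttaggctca
Xpo1 (chr11:23255791-23256040, plus strand): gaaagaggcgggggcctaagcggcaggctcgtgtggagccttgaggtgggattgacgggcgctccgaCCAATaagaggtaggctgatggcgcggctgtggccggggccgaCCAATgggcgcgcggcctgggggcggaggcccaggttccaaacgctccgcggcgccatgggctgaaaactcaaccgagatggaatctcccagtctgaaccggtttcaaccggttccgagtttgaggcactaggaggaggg
Nup205 (chr6:35177366-35177615, plus strand): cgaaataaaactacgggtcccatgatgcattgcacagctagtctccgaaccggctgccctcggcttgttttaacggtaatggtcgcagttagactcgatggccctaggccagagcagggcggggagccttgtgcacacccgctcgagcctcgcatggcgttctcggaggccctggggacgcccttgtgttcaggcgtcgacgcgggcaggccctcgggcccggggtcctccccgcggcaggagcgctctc

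With all 6 libraries no member passed the threshold (edgeR quasi-likelihood test, Benjamini-Hochberg adjusted p under 0.05), where 1.52% of all 14509 tested genes did, 0.365% lower and 1.16% higher. At an unadjusted p under 0.05, 3 members were lower and none higher, and 7.48% of all genes were lower. DESeq2 called the same 3 lower (Nup85, Nup43 and Nup35) and none higher, against 3.56% of all genes lower, 4.92% higher and 8.48% in either direction. The log2 fold changes of SMG over NG were below 0 for 34 of 40 members, against 52.3% of all genes, and their median was -0.13, against -0.02 over all genes. In 7 members every SMG library lay below every NG library, a share of 17.5% beside 12.9% of all genes. These 7 were Nup37, Nup43, Nup85, Nup54, Nup35, Nup93 and Kpna2.

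Leaving out NG replicate 1 changed the calls. Of the 40 members, 25 fell in SMG (62.5%) and none rose, whereas 15.1% of 14809 tested genes fell and 15.7% rose, 30.8% in all. Across the 25 the log2 fold changes ran from -0.69 to -0.20 with a median of -0.39. The median over all 40 members was -0.35, against 0.01 over all genes, and 38 of 40 were below 0, as were 49.2% of all genes. All 3 SMG libraries lay below both NG replicates 2 and 3 in 33 members (82.5%), as in 29.3% of all genes. The other 7 overlapped, and no member had all SMG libraries above both. The same comparison by DESeq2 gave 30 members lower and none higher, beside 17.4% of all genes lower and 34.8% in either direction. This choice of libraries was made with the outlying library known, and it leaves 3 SMG against 2 NG libraries.

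**Figure D2:**
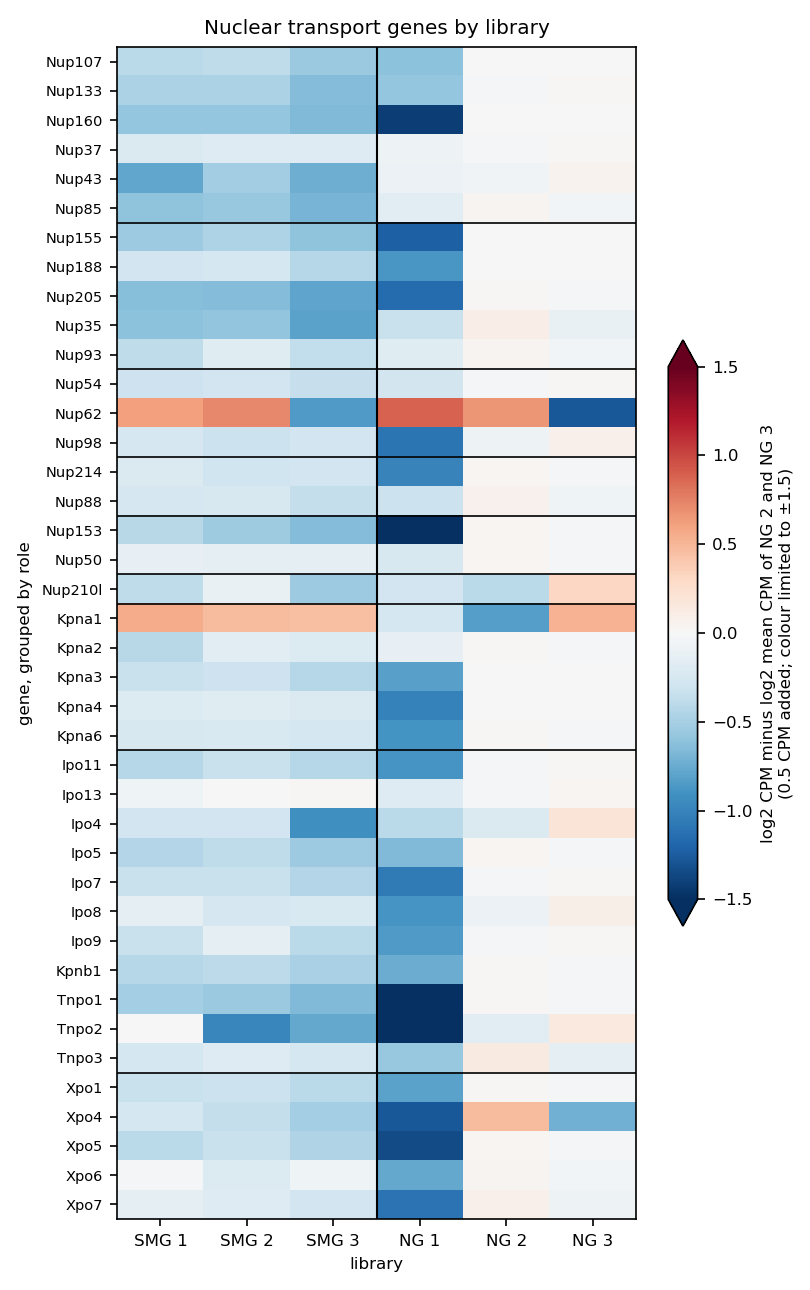
Colour shows the log2 CPM of each tested member (rows, grouped by role) in each library (columns, SMG left and NG right) minus the log2 of the mean CPM of NG replicates 2 and 3. Most rows are pale blue throughout SMG and darker blue in NG replicate 1, while Nup62 and Kpna1 break the pattern.

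Y complex genes encode the outer scaffold, which also sits at kinetochores in mitosis. Of the 6 tested, none passed with all libraries, and 5 fell without NG replicate 1 (median log2 fold change -0.57). Nup85 had 87.5, 89.1 and 81.6 CPM in SMG, against 119, 137 and 129 CPM in NG replicates 1 to 3. The groups did not overlap, and NG replicate 1 was the lowest of its group. Nup85 (ENSMUSG00000020739, GRCm38 chromosome 11 from 115564434 to 115583985) averaged 86.1 ± 3.98 CPM in SMG and 128.1 ± 8.90 CPM in NG (SD, n = 3 each). Its log2 fold change was -0.57 (SE 0.11 and adjusted p = 0.0648), and -0.62 (SE 0.06 and adjusted p = 0.00136) without NG replicate 1.

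Nup43, a small Y complex subunit, had 14.9, 17.98 and 15.5 CPM in SMG, against 24.5, 25.0 and 27.0 CPM in NG. No SMG library reached the NG range. Its log2 fold change was -0.66 (SE 0.13 and adjusted p = 0.0686), the lowest of all members in this comparison. It was -0.69 without NG replicate 1 (adjusted p = 0.00586). Nup43 lies within Pcmt1 on the opposite strand over 11379 bases. These are whole gene spans with introns, and the overlap of exons was not examined. With no strand setting stated, reads from any exon bases that both share cannot be told apart. In all, 28 members overlap another gene, 21 of them one on the opposite strand. Pcmt1 had 1213, 1166 and 1289 counts in SMG and 2013, 1637 and 1800 counts in NG, thus also without overlap.

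Nup160, the Y complex arm subunit with a long transcript, had 101.1, 100.9 and 95.5 CPM in SMG, against 56.4, 151.8 and 151.5 CPM in NG. SMG lay between NG replicate 1 and the other NG libraries. Its log2 fold change was -0.27 (adjusted p = 0.782) with all libraries and -0.61 (SE 0.05 and adjusted p = 0.000713) without NG replicate 1. Nup107 and Nup133, which form the stem of the complex, had -0.44 and -0.53 in that comparison, with adjusted p-values of 0.00603 and 0.00389. Nup37 had 28.7, 29.2 and 29.3 CPM in SMG and 31.9, 33.1 and 34.1 CPM in NG, a separation too small to pass in either comparison (adjusted p = 0.445 and 0.0538).

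Inner ring genes encode the scaffold that anchors the channel. All 5 fell without NG replicate 1, with a median of -0.53, and none passed with all libraries. Nup205 had 117, 116 and 105 CPM in SMG, against 81.6, 184.3 and 179.3 CPM in NG. NG replicates 2 and 3 were high and NG replicate 1 was the lowest of the 6. In its absence the log2 fold change of Nup205 was -0.69 (SE 0.06 and adjusted p = 0.000992), the lowest of all members in that comparison. With all libraries it was -0.40 (SE 0.30 and adjusted p = 0.600).

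Nup35, which binds membrane and inner ring partners, had 23.8, 24.2 and 20.8 CPM in SMG, against 28.9, 39.4 and 34.1 CPM in NG. The groups did not overlap, and the log2 fold change was -0.57 (SE 0.15 and adjusted p = 0.135), or -0.68 (adjusted p = 0.00577) without NG replicate 1. Nup93, the linker of the inner ring, had 68.3, 78.1 and 68.5 CPM in SMG and 78.5, 91.5 and 86.1 CPM in NG. Its highest SMG library thus lay just under NG replicate 1, and the log2 fold change was -0.25 (adjusted p = 0.375), or -0.31 (adjusted p = 0.0303) without that library. Nup188, a paralogue of Nup205, and Nup155, which contacts the membrane, fell by 0.33 and 0.53 on the log2 scale in the comparison without it (adjusted p = 0.0105 and 0.00175).

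The central channel, cytoplasmic and basket genes encode the proteins that carriers touch. Nup54 of the channel had 44.8, 45.2 and 43.4 CPM in SMG, against 45.7, 54.9 and 56.0 CPM in NG, and its log2 fold change was -0.23 (adjusted p = 0.429). Nup88, which holds Nup214 on the cytoplasmic side, had 119, 120 and 111 CPM in SMG, against 113, 148 and 135 CPM in NG (log2 fold change -0.18, adjusted p = 0.576). SMG and NG overlapped for Nup88 through NG replicate 1 and stood apart without overlap for Nup54. Both fell without NG replicate 1, at -0.32 and -0.28 (adjusted p = 0.00828 and 0.0209), together with Nup214 at -0.27 (adjusted p = 0.0124).

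Nup214 with all libraries differed by -0.0054 (adjusted p = 0.996), with 97.8, 92.5 and 93.0 CPM in SMG, against 56.7, 115.9 and 111.8 CPM in NG. Nup98, whose transcript also encodes the Y complex protein Nup96, was at -0.29 (adjusted p = 0.0145) without NG replicate 1. Nup153 of the nuclear basket had 105.9, 97.8 and 90.6 CPM in SMG, against 44.4, 145.1 and 138.6 CPM in NG. Its NG range enclosed all SMG values, and the log2 fold change was -0.16 (adjusted p = 0.906), or -0.53 (adjusted p = 0.00447) without NG replicate 1. Nup50, the other basket gene, was nearly level at 117, 116 and 115 CPM in SMG, against 107.9, 130.3 and 124.6 CPM in NG, and did not pass in either comparison (adjusted p = 0.847 and 0.0722).

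Nup210l, a relative of Nup210 known from testis, had 2.06, 2.58 and 1.79 CPM in SMG and 2.23, 2.02 and 3.65 CPM in NG. The groups overlapped, and the log2 fold change was -0.30 (adjusted p = 0.714). In all, 15 of 19 tested nucleoporins fell without NG replicate 1 (median -0.40), as did 10 of 21 carriers (median -0.35). The difference between both kinds was not tested.

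**Figure D3:**
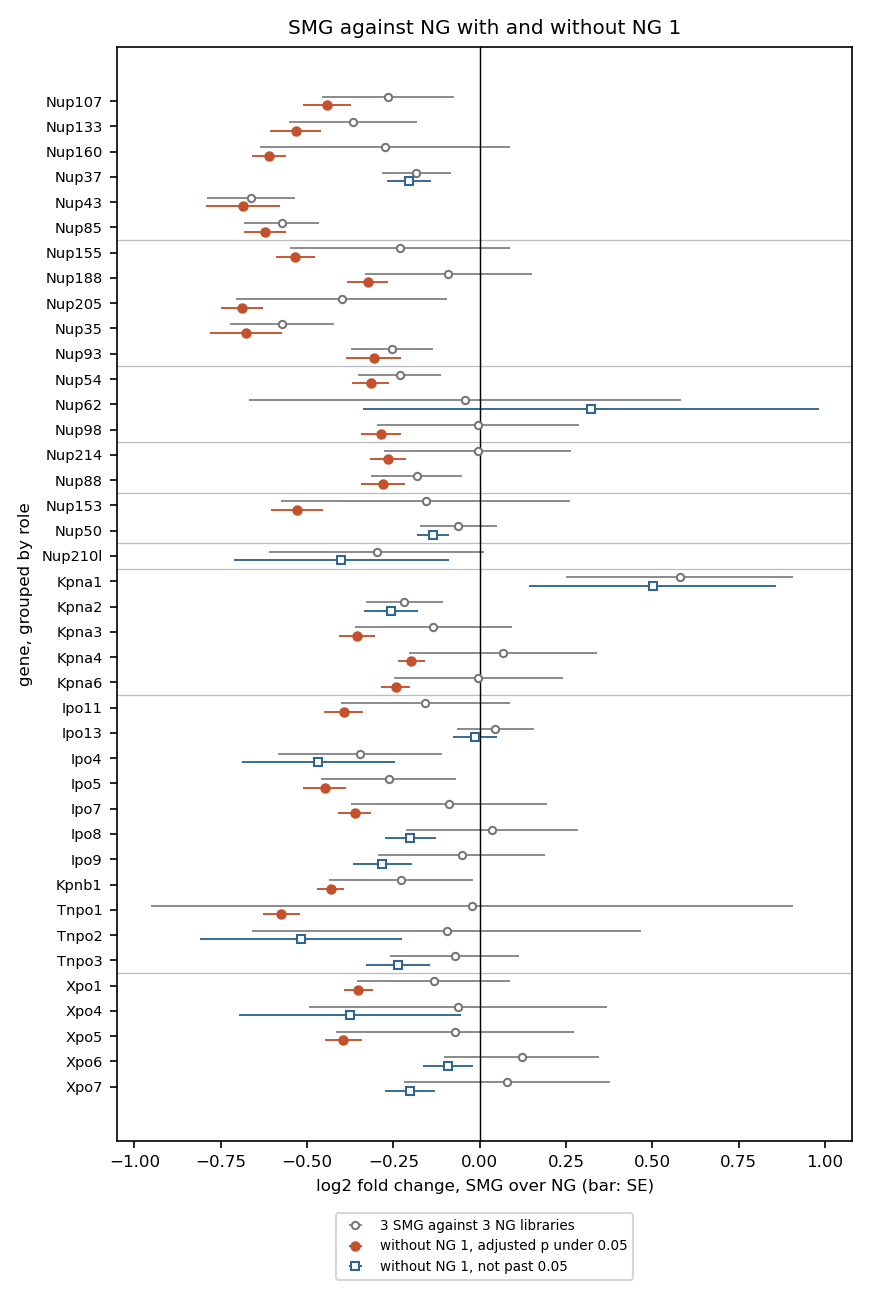
Log2 fold change of SMG over NG (x axis, with SE) for each tested member (rows, grouped by role) from all 6 libraries (open grey circles) and without NG replicate 1 (filled orange where the adjusted p was under 0.05, open blue squares elsewhere). Without NG replicate 1 the values shift left and their errors shrink for most genes, and the 25 filled points all lie left of 0.

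Importin alpha genes encode adaptors with an importin beta binding domain, and the table's Pfam terms gave all 6 that domain and armadillo repeats. Kpna2 had 199.5, 237.4 and 231.9 CPM in SMG, against 245.0, 269.2 and 264.3 CPM in NG. The groups did not overlap, though SMG replicate 2 came close to NG replicate 1, and the log2 fold change of -0.22 (SE 0.11) did not pass (adjusted p = 0.417). It was -0.26 without NG replicate 1 (adjusted p = 0.0533). Kpna3, Kpna4 and Kpna6 fell in that comparison by 0.36, 0.20 and 0.24 on the log2 scale (adjusted p = 0.00521, 0.0136 and 0.00847), and with all libraries their values were -0.13, 0.07 and -0.0045. A pseudogene named Kpna2-ps had at most 13 counts in a library.

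Kpna1 had values above 0 in both comparisons. Its levels were 111, 106 and 104 CPM in SMG, against 63.1, 42.4 and 109.2 CPM in NG. SMG was even, while NG replicates 2 and 3 differed 2.58-fold and replicate 3 lay inside the SMG range. The log2 fold change of 0.58 (SE 0.33) was the highest of all members and did not pass (adjusted p = 0.470), nor did it without NG replicate 1 (0.50, adjusted p = 0.343). It was 0.31 without NG replicate 2 and 1.02 without NG replicate 3.

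Importin beta and transportin genes encode carriers that bind the pore themselves. The table's Pfam terms placed an importin beta N-terminal domain in 10 of the 16 carrier genes other than importin alpha. Of the 11 in this group, 5 fell without NG replicate 1 and all 11 had values below 0 (median -0.39), while none passed with all libraries. Kpnb1 (ENSMUSG00000001440, chromosome 11 from 97159714 to 97187881) had 498.7, 508.1 and 479.0 CPM in SMG, against 400.3, 675.5 and 663.2 CPM in NG. SMG lay between NG replicate 1 and the others, with a log2 fold change of -0.23 (adjusted p = 0.674). It was -0.43 without NG replicate 1 (SE 0.04 and adjusted p = 0.00112).

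Ipo5, a carrier of ribosomal proteins and histones, had 133, 139 and 124 CPM in SMG, against 114, 184 and 177 CPM in NG. With all libraries its log2 fold change was -0.26 (adjusted p = 0.590), and -0.45 (adjusted p = 0.00396) without NG replicate 1. Ipo7 and Ipo11 fell by 0.36 and 0.39 on the log2 scale in that comparison (adjusted p = 0.0035 and 0.00426). Ipo13, which carries cargo in both directions, had 34.4, 36.0 and 36.5 CPM in SMG and 31.5, 35.4 and 36.7 CPM in NG, and its value without NG replicate 1 was -0.01 (SE 0.06). Ipo8, Ipo9 and Tnpo3 had values of -0.20, -0.28 and -0.24 there and did not pass (adjusted p = 0.0873, 0.0502 and 0.104).

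Tnpo1, which imports RNA-binding proteins with a proline-tyrosine signal, had the widest gap between NG replicate 1 and the other NG libraries among the tested members. It had 351.7, 341.3 and 315.7 CPM in SMG, against 21.6, 507.6 and 495.8 CPM in NG, so that NG replicate 1 was 23.2-fold below the mean of the other NG libraries. The group means were 336.2 ± 18.5 CPM in SMG and 341.7 ± 277.3 CPM in NG (SD, n = 3 each). The log2 fold change was -0.02 (SE 0.93 and adjusted p = 0.995) with all libraries and -0.57 (SE 0.05 and adjusted p = 0.00123) without NG replicate 1. In raw counts NG replicate 1 had 689, and the other 5 libraries 10251 to 17094. Its paralogue Tnpo2 varied within both groups, at 82.4, 41.4 and 48.0 CPM in SMG and 19.2, 73.7 and 90.7 CPM in NG, and did not pass (adjusted p = 0.962, or 0.233 without NG replicate 1).

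Ipo4, which imports histones and ribosomal proteins, had 49.8, 49.9 and 31.9 CPM in SMG, against 45.6, 52.2 and 69.4 CPM in NG. SMG replicate 3 was low, and the log2 fold change was -0.35 (adjusted p = 0.556). It was -0.16 without SMG replicate 3, -0.16 without NG replicate 3 and -0.47 without NG replicate 1 (adjusted p = 0.165). Another protein-coding gene of the same strand, AC174678.2, overlaps Ipo4 by 6882 bases. It had 17, 120 and 831 counts in SMG and 5, 304 and 19 counts in NG, and it was highest in the library where Ipo4 was lowest. The sum of both genes was 50.3, 53.9 and 57.5 CPM in SMG and 45.8, 61.2 and 70.0 CPM in NG. The sum thus differed less among SMG libraries than Ipo4 did, and NG replicates 2 and 3 stayed above SMG.

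Exportin genes encode carriers out of the nucleus, and 2 of 5 fell without NG replicate 1 (median -0.35). Xpo1 (ENSMUSG00000020290, chromosome 11 from 23256041 to 23298249) had 219.7, 222.3 and 210.4 CPM in SMG, against 159.6, 280.5 and 275.6 CPM in NG. Its log2 fold change was -0.13 (SE 0.22 and adjusted p = 0.834) with all libraries and -0.35 (SE 0.04 and adjusted p = 0.00257) without NG replicate 1. Xpo5, the exporter of microRNA precursors, also fell without that library, by 0.39 on the log2 scale (adjusted p = 0.00387).

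Xpo6, the exporter of actin and profilin, had 77.1, 68.1 and 75.1 CPM in SMG, against 45.7, 80.7 and 76.1 CPM in NG. Its log2 fold change was 0.12 (adjusted p = 0.853), or -0.09 (adjusted p = 0.383) without NG replicate 1. Xpo7 was at 0.08 and -0.20 in these comparisons and passed in neither (adjusted p = 0.937 and 0.0799). Xpo4 had 68.0, 63.8 and 57.4 CPM in SMG, against 33.8, 114.4 and 49.6 CPM in NG, so that its NG replicates 2 and 3 differed 2.31-fold.

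Nup62, the core protein of the central channel, was low in replicate 3 of both groups. It had 98.4, 106.0 and 35.4 CPM in SMG, against 118.7, 101.7 and 26.3 CPM in NG. The groups overlapped, and the log2 fold change was -0.04 (SE 0.62 and adjusted p = 0.987), or 0.32 (adjusted p = 0.752) without NG replicate 1. Among 8450 genes that exceeded 20 CPM in a library, 4 were likewise below 50% of both partners in replicate 3 of each group, namely Nup62, Sumo2, Ube2v2 and Cptp, a count made after the values of Nup62 were seen. Nup62 (chromosome 7 from 44816088 to 44830812) overlaps Il4i1 over 14426 bases on the same strand and Atf5 over 571 bases on the other. Il4i1 had 17 to 60 counts in a library, and the counts of Atf5 were 2974, 2649 and 3022 in SMG and 3282, 2119 and 1946 in NG.

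**Figure D4:**
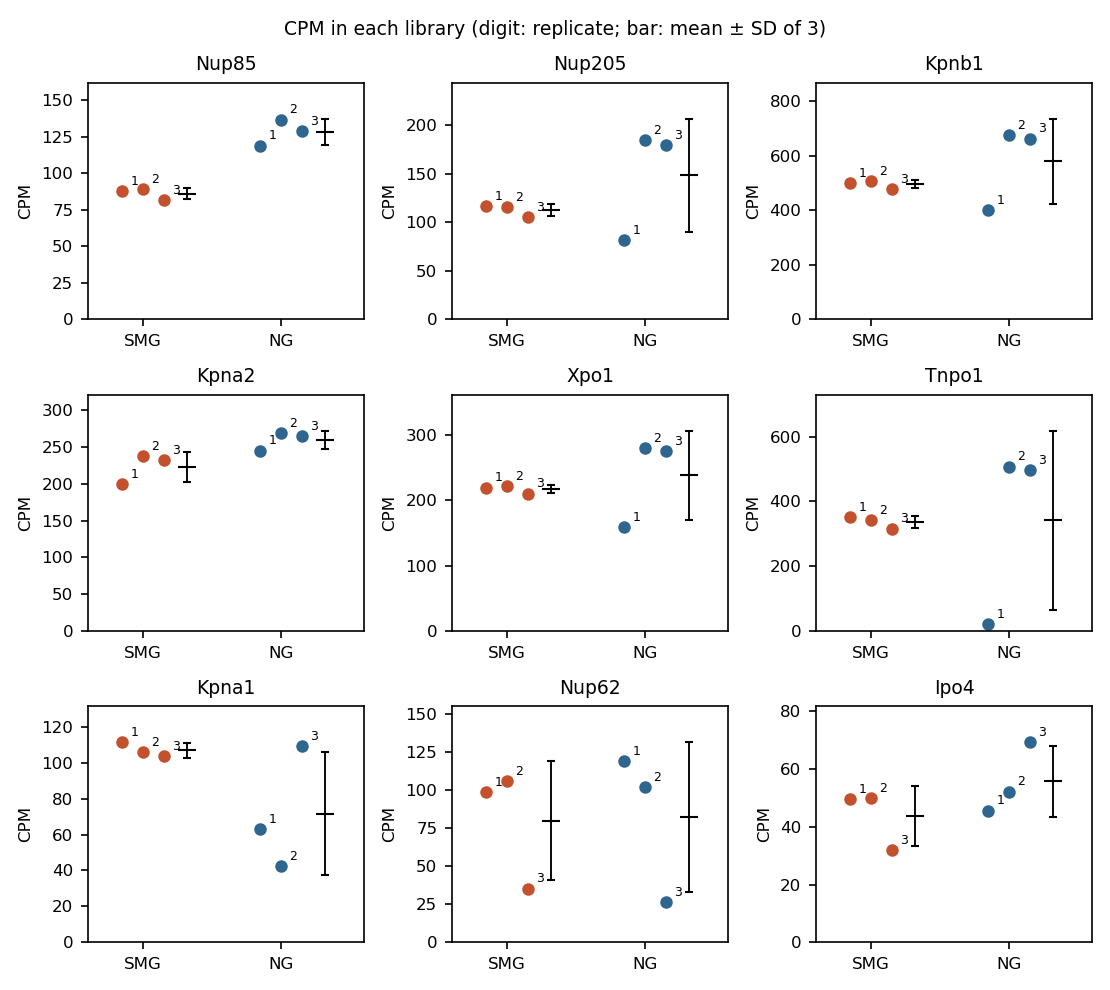
CPM of 9 members in each library (points, digit for the replicate; SMG left, NG right) with the mean and SD of 3 libraries. Nup85 and Kpna2 separate by group, NG replicate 1 is low for Nup205, Kpnb1, Xpo1 and Tnpo1, and replicate 3 of both groups is low for Nup62.

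Members varied little among the SMG libraries and more among all 3 NG libraries. In SMG, the highest library exceeded the lowest by more than 25% for 4 of 40 members (Nup62, Ipo4, Tnpo2 and Nup210l), and the other 36 stayed within 1.21-fold. NG replicates 2 and 3 differed by more than 25% for 5 members (Nup62, Xpo4, Kpna1, Ipo4 and Nup210l), and with NG replicate 1 included the NG libraries did so for 32. NG replicate 1 was below the mean of NG replicates 2 and 3 in 39 members, Nup62 being the exception. For these spreads and this count no share over all tested genes was computed, so they describe the members only. NG replicate 1 was the lowest of all libraries in 27 members (67.5%), as in 33.1% of all tested genes. Counts of all members together took 0.464%, 0.469% and 0.426% of the library in SMG and 0.322%, 0.612% and 0.601% in NG.

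Gene length moved with the level in NG replicate 1. The tested members had a median length of 5354 bases, against 2893 for all tested genes. In members over 5000 bases (21 genes) the median log2 ratio of NG replicate 1 to the mean of NG replicates 2 and 3 was -1.001, and it was -0.67 in other genes of that class. In members of up to 3000 bases (9 genes) it was -0.16, against 0.35 in other genes. Across the 40 members this ratio had a Spearman correlation of -0.73 with length, and across all 14509 genes one of -0.52, both as descriptions across genes of the same libraries.

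The SMG mean over NG replicates 2 and 3 did not follow length among the members. The median log2 ratio was -0.31 up to 3000 bases, -0.38 from there to 5000 bases and -0.34 above that, against 0.05, 0.0018 and -0.11 in other genes. The Spearman correlation with length was 0.04 across members and -0.14 across all genes. With a trend on gene length removed, 1 member (Nup133, adjusted p = 0.0362) was lower with all libraries, beside 1.85% of all genes lower, 3.05% higher and 4.91% in either direction. The same correction without NG replicate 1 called 25 members lower, 23 of them shared with the uncorrected comparison, beside 15.1% of all genes lower and 30.6% in either direction.

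**Figure D5:**
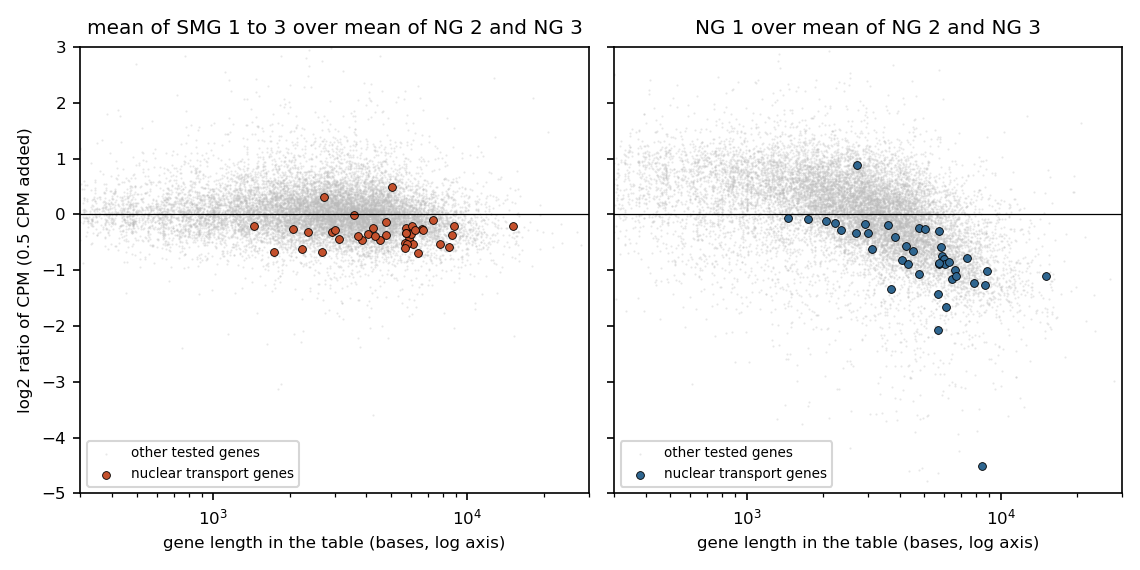
Log2 CPM ratio to the mean of NG replicates 2 and 3 (y axis) against gene length (x axis, log scale) for the SMG mean (left) and NG replicate 1 (right), with members as large points and other tested genes in grey (genes outside the axes are not drawn). Members lie mostly under 0 at every length on the left, and on the right they fall away as length grows.

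Genes of the same transport system outside the symbol rule were taken from 3 lists of 48 genes, 47 of them tested. With all libraries none passed in edgeR, and 6 did in DESeq2, beside 8.48% of all genes. Without NG replicate 1, 5 of 13 other pore genes, 7 of 11 Ran cycle and carrier genes and 4 of 23 mRNA export genes fell, and none rose, beside 15.1% of all genes lower. The mRNA export count was thus near that share. Their medians were -0.28, -0.36 and -0.14. Ran, the GTPase that gives transport its direction, had 336.3, 361.0 and 349.4 CPM in SMG, against 481.3, 464.8 and 439.0 CPM in NG. The groups did not overlap, and the log2 fold change was -0.40 (SE 0.09 and adjusted p = 0.104), or -0.37 (adjusted p = 0.00311) without NG replicate 1.

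Nutf2, the carrier that returns Ran to the nucleus, had 24.1, 30.2 and 25.7 CPM in SMG, against 68.5, 38.0 and 54.5 CPM in NG, a log2 fold change of -1.01 (SE 0.23 and adjusted p = 0.0983). The 3 NG libraries were all higher and spread widely. Nutf2 was at -0.79 without NG replicate 1 (adjusted p = 0.0173) and passed with all libraries in DESeq2 (adjusted p = 0.00229) and with the length trend removed (adjusted p = 0.0373). Seh1l, a Y complex gene, was at -0.28 (adjusted p = 0.443) and at -0.40 (adjusted p = 0.00465) without NG replicate 1. Sarnp, of the mRNA export complex, was at -0.37 (adjusted p = 0.160) and at -0.37 (adjusted p = 0.014). Cse1l, the exportin that returns importin alpha to the cytoplasm, fell by 0.45 on the log2 scale (adjusted p = 0.00238) without NG replicate 1. Nxf1, the main mRNA export receptor, stood at 0.0027 there (SE 0.05).

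Genes of G2 and mitosis also had values below 0, each of them both with all libraries and without NG replicate 1. None of 20 passed with all libraries (median -0.35), and 19 fell without NG replicate 1 (median -0.49), beside 15.1% of all genes lower. Their summed level was 2706 to 3044 CPM in SMG, against 2688 CPM in NG replicate 1 and 4251 to 4499 CPM in NG replicates 2 and 3. The sum hides differences between genes in NG replicate 1. Top2a (5221 bases) and Mki67 (10061 bases) had 553.4 and 260.4 CPM there. In NG replicates 2 and 3 Top2a had 1029 and 1043 CPM, and Mki67 605.4 and 719.9 CPM. Birc5 (3334 bases) and Ccnb2 (1531 bases) went the other way. Birc5 had 151.5, 113.5 and 111.1 CPM in NG replicates 1 to 3, and Ccnb2 150.1, 114.7 and 115.4 CPM. Aurkb, a mitotic kinase gene, had 51.9, 54.4 and 51.6 CPM in SMG, against 81.3, 69.6 and 79.0 CPM in NG (log2 fold change -0.54, adjusted p = 0.0800). It was at -0.50 without NG replicate 1 (adjusted p = 0.00465) and passed with all libraries in DESeq2 (adjusted p = 0.000174) and with the length trend removed (adjusted p = 0.0457). The part of cell cycle composition in the levels of the nuclear transport genes was not tested, nor was that of the macrophage markers. Of these markers none of 11 tested passed with all libraries. Without NG replicate 1, 8 of 12 rose, beside 15.7% of all genes higher.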

How the data were processed

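RNA sequencing of 6 libraries (3 SMG, 3 NG) was deposited as 1 gene table. The tools named are fastp 2.0 and HISAT2 2.1.0, per the submitters' processing notes. How reads were counted, with which strand setting, build and annotation, is not given in the sources used here. Judging by their values, the deposited numbers are raw counts per gene (whole numbers, unequal library sums), and the authors' table also lists a gene length. Of 53801 lines, 1 holds no gene. Start and end equalled GENCODE M21 (GRCm38) for 97.1% of 53619 shared genes and for 42 of 43 members.

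Counts were fitted over all genes in R 4.3.3 with edgeR 4.0.16 (filterByExpr, TMM, quasi-likelihood test, two-sided, Benjamini-Hochberg over all tested genes, threshold 0.05). SE is the log2 fold change over the root of F. CPM are TMM-scaled except the sums over marker and mitosis lists. Alternatives were DESeq2 1.42.0 (test, and its size factors), library size scaling, no low-count filter, removal of a loess trend on length (span 0.5), the replicate number as a block, and leaving out each library. The length trend and the DESeq2 test, each without NG replicate 1, were chosen after seeing the data. For a symbol on several rows the row with most counts was used in lists. The procedure was tested on simulated counts drawn without the length trend of NG replicate 1, so that test does not cover the trend.

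Members, lists and promoter motifs were chosen with earlier results of these data known. The genes named were the 2 with the lowest p of each role group, the highest and lowest log2 fold change at a mean of at least 5 CPM, and the lowest p of each other list. The remaining genes were named after their values were seen. The limit for a count of 0 is 3 counts of the total and covers counting error only.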

Additional observations from a re-analysis of the deposited data

How the results depend on the processing

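The absence of calls among members held with DESeq2 size factors, library size scaling and no filter on low counts, where 0 of the tested members passed in either direction. The DESeq2 test called 3 members lower and removal of the length trend 1. Leaving out 1 library at a time gave 0 to 25 members lower, and the 25 arose only without NG replicate 1. Without that library, the length-corrected fit called 25 and the DESeq2 test 30. No alternative run called a member higher. The cause of these shifts was not tested.

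Over all genes 221 passed. The count was 125 with no filter, 1230 in the DESeq2 test, 712 with the length trend removed, and 3 to 4559 when a library was left out, the highest without NG replicate 1. Without NG replicate 1, 4534 passed with the length trend removed and 5159 by DESeq2. Of the other nuclear transport genes 0 passed, 6 in the DESeq2 test, 2 with the length trend removed, 0 to 16 when a library was left out (16 without NG replicate 1), and 19 and 20 in the length-corrected and DESeq2 fits without NG replicate 1.

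With the replicate number as a block 0 genes and 0 members passed. Same-numbered libraries deviated from their group means with correlations of -0.073, 0.025 and -0.09, so the numbers were not taken to pair the samples, and of the SMG libraries only replicate 2 correlated best with its own number. Under the block 25 of 40 members were below 0, against 34 without it. Among the genes named by the stated rule, the signs turned for Nup153 (0.004), Nup214 (0.06) and Nup62 (0.07).

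Without NG replicate 1 the sign differed for 6 members (Nup62, Xpo6, Xpo7, Kpna4, Ipo13 and Ipo8), and 1 of them, Kpna4, then passed. Among the genes named by that rule, when 1 library was left out, Nup153 ran from -0.53 to 0.10 (positive without NG replicates 2 and 3), Nup210l from -0.46 to 0.0095 (positive without NG replicate 3) and Nup214 from -0.27 to 0.16 (positive without SMG replicates 2 and 3 and NG replicates 2 and 3). Nup62 ran from -0.47 to 0.32 (positive without SMG replicate 3 and NG replicates 1 and 2) and Xpo6 from -0.09 to 0.27 (negative without NG replicate 1). Without NG replicate 1, Nup62 was at 0.28 in the length-corrected and 0.32 in the DESeq2 fit, and Xpo6 was at -0.10 in the DESeq2 fit.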
